A study of Mus musculus with 3 samples.

Results

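The 35 motile cilium genes described here encode the machinery that lets a cilium beat, together with 3 transcription factors that switch such genes on. They were listed because 2 of them, Cfap44 and Armc2, led the nuclei of neurosphere cultures that carry Gfap and Aqp4, and the question was whether the wider ciliary programme was also on in those nuclei. All 35 symbols were found among the 30559 genes counted. Levels in those nuclei thus chose the list in part, and every comparison of them with other nuclei is given as a description, with no test.

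The libraries came from single-nucleus RNA sequencing of mouse neurospheres, which are floating balls of neural stem cells and their progeny, taken here from the subventricular zone of newborn C57BL/6 mice and differentiated to day 15 in vitro. Each of the 3 libraries pooled about 15 cultures, 1 library to a condition: control, CBPf/f with Cre and p300f/f with Cre, called CBP-ablated and p300-ablated here. CBP (gene Crebbp) and p300 (gene Ep300) are paralogous lysine acetyltransferases and transcriptional coactivators. The study's methods give lentiviral Cre with mCherry for ablation and lentiviral RFP for control cultures, with nuclei sorted on that fluorescence, whereas the sample labels of all 3 give the treatment as tamoxifen. Which floxed line the control cultures came from is not given in the sources used here.

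With 1 library per condition, no difference between conditions has a replicate check. Values are unique molecular identifier (UMI) counts of a gene summed over the nuclei of a class and divided by all UMIs of those nuclei, and given per 1000000 UMIs (CPM). The range after a value is an exact 95% Poisson interval for a level, a conditional binomial one for a ratio and a Clopper-Pearson one for a share. These cover counting error only, and a CPM cannot tell fewer expressing nuclei from less RNA in each. They treat each UMI as independent, so they are too narrow for a gene whose UMIs lie in few nuclei. The control library held 4884 nuclei, the CBP-ablated 3017 and the p300-ablated 4648, with median depths of 3219, 4016 and 3902.5 UMIs. Between 4 and 10 barcodes of each library also occurred in another. Crebbp stood at 335, 369.5 and 365 CPM and Ep300 at 114, 136 and 115 CPM in the 3 libraries, so neither was lower in the library named for it. These counts from introns and exons do not check the deletion of floxed exons. The paper reports that both proteins were removed and shows immunostaining for CBP. It describes a truncated CBP protein made from the recombined Crebbp gene, and a loss of mature Ep300 mRNA.

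A motile cilium is a whip-like extension of the cell built on a ring of microtubule doublets around a central pair. Dynein arms on the doublets slide them past each other, while radial spokes, nexin links and the central pair turn sliding into a beat. In the brain, motile cilia stand in tufts on ependymal cells, which line the ventricles, arise from radial glia and move cerebrospinal fluid. FOXJ1 and RFX factors activate the structural genes, and GEMC1 (gene Gmnc) and MCIDAS start the programme that multiplies centrioles in multiciliated cells. RFX factors bind the X-box, a pair of facing half-sites near the start of many ciliary genes.

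The promoters of these genes were searched for the letters of the X-box. RefSeq promoters on GRCm38.p6, from 250 bases before to 50 after a start, were at hand for 29 of the 35 genes and not for Foxj1, Cfap54, Ccdc146, Armc2, Armc4 and Rsph1. The windows below run from 100 bases before to 20 after the start, 5′ to 3′ on the gene's strand, with the matched motif in capitals. The starts used for Zbbx and for Cfap43, whose window is not shown, lie well inside those genes as GENCODE draws them. That of Tekt1 lies inside its gene but near the 5′ end, and another RefSeq promoter of Tekt1 held no match. The windows of Ak9 and Zbbx hold the X-box pair, and the others shown are examples with a GTTGCC half-site. The windows of Cfap46, Dynlrb2 and Spef2 also hold a half-site and are not shown.
Ak9 (chr10:41303834-41303953, strand +): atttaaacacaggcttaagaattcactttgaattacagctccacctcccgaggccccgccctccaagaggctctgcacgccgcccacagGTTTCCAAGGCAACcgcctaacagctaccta
Zbbx (chr3:75143753-75143872, strand -): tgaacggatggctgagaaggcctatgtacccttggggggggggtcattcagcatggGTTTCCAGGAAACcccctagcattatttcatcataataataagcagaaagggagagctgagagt
Cfap44 (chr16:44394699-44394818, strand +): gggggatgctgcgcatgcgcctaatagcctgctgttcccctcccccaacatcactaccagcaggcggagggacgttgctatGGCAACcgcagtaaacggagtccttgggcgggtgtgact
Drc1 (chr5:30281293-30281412, strand +): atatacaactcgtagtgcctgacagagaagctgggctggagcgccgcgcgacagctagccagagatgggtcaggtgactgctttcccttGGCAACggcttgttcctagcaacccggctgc
Hydin (chr8:110266877-110266996, strand +): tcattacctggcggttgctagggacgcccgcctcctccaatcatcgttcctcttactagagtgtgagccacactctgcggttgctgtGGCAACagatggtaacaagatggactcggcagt
Tekt1 (chr11:72361863-72361982, strand -): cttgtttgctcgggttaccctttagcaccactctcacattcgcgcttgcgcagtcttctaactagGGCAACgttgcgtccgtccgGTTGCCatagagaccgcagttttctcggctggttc

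The X-box pair was searched as GTTNCC, a gap of 0 to 3 bases and GGNAAC, which reads the same on both strands. It was found in 2 of 29 genes (6.90%), against 1.03% of the 12531 genes with at least 20 UMIs and a promoter. The half-site GTTGCC, or GGCAAC on the other strand, was found in 12 of 29 genes (41.4%), against 15.1% of those 12531 genes. The 12 were Rfx2, Rfx3, Dnah7a, Cfap44, Cfap46, Spag16, Spef2, Hydin, Drc1, Ak9, Dynlrb2 and Tekt1, and a half-site can be part of an X-box pair, as in Ak9. A forkhead core, GTAAACA or TGTTTAC, was found in Cfap43, Ak7 and Iqub (10.3%), against 3.26% of the same 12531 genes. The half-site GTTGCC was not particular to the motile cilium genes. In further ciliary lists described below it was found in 48.3% of 29 transport and primary cilium genes. Its share ran from 20% of 5 other genes with Rfx names to 88.9% of 9 dynein assembly factors. These are matches of letters in a window, not binding sites.

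The nuclei that carry Gfap and Aqp4 formed 1 of 13 clusters, and all 9 glial progenitor markers stood above the other nuclei in it. They are called glial progenitor-like and numbered 445 of the control, 394 of the CBP-ablated and 576 of the p300-ablated nuclei, or 9.11%, 13.1% and 12.4% of nuclei. Their median depths were 2924, 3498 and 3415 UMIs. At a higher clustering resolution, 27 of them (2 control, 15 CBP-ablated and 10 p300-ablated nuclei) formed a small cluster of their own with high levels of ciliary genes. In that small cluster alone, only 3 of the 9 glial progenitor markers stood above other nuclei. Values in glial progenitor-like nuclei include these 27 unless said otherwise. Gfap, which encodes the intermediate filament of astrocytes and radial glia, stood at 573, 1011 and 620 CPM there, and Aqp4, the water channel, at 627, 744 and 668 CPM. Only 1 of the 9 markers, Gfap, was among the 10 leading genes of the cluster. Markers of ependymal cells were mostly low. Of these 8 markers, 1 stood above the other nuclei, their summed level was 36.5, 45.9 and 75.5 CPM and came mostly from that gene, Enkur, and Fam183b, Cdhr4 and Sntn had 0 UMIs in each library, where 3 UMIs would be 2.24, 2.15 and 1.52 CPM.

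The ciliary genes were higher in glial progenitor-like nuclei than elsewhere in each library. Their summed level was 2313 CPM (2232 to 2396) in control, 3199 CPM (3106 to 3294) in CBP-ablated and 3381 CPM (3300 to 3463) in p300-ablated glial progenitor-like nuclei. In the other nuclei of the same libraries the sums were 540.0, 531 and 593 CPM. The log2 ratios were 2.10 (2.04 to 2.16), 2.59 (2.53 to 2.65) and 2.51 (2.47 to 2.56). Of the genes with at least 20 UMIs in the 2 groups together, 27 of 33 were at least 2 times higher in control, 32 of 34 in CBP-ablated and 35 of 35 in p300-ablated nuclei, and none was 2 times lower. Over all genes so counted, the shares at least 2 times higher were 11.5%, 15.6% and 15.8%. The list was chosen partly on this contrast, so nothing is read from these counts.

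Taken over the 3 libraries, 34 of the 35 genes had their highest level in glial progenitor-like nuclei among classes with at least 200000 UMIs, and 26 had it there in each library. The exception was Hydin, a giant protein of the central pair, at 35.5 CPM in neuron-like against 20.2 CPM in glial progenitor-like nuclei. Its neuron-like levels were 16.2, 41.4 and 42.7 CPM in control, CBP-ablated and p300-ablated nuclei. Without the small cluster, Ak7 and Armc4 lay below the unnamed cluster 8, at 8.68 against 14.6 CPM and 12.59 against 12.76 CPM. Cfap61 then lay below neuron-like nuclei, at 39.1 against 42.8 CPM. Spag17 lay below proliferating-like nuclei, at 4.12 against 5.08 CPM. The share of all genes highest in each class is not given, so nothing is read from the counts of genes by class. The class next to glial progenitor-like was the RGC/PSC-like one, named for radial glial and stem cell markers, which came second for 23 genes with a summed level of 1395, 1163 and 1450 CPM. The RGC/PSC-like class also held 6 of the 9 glial progenitor markers above other nuclei. Astrocyte-like nuclei, called only in control, held 579 CPM, and NPC/OPC-like nuclei held 318, 373 and 328 CPM. The 6 other named classes lay between 267 and 876 CPM and the 3 unnamed clusters between 433 and 1193 CPM.

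**Figure D1:**
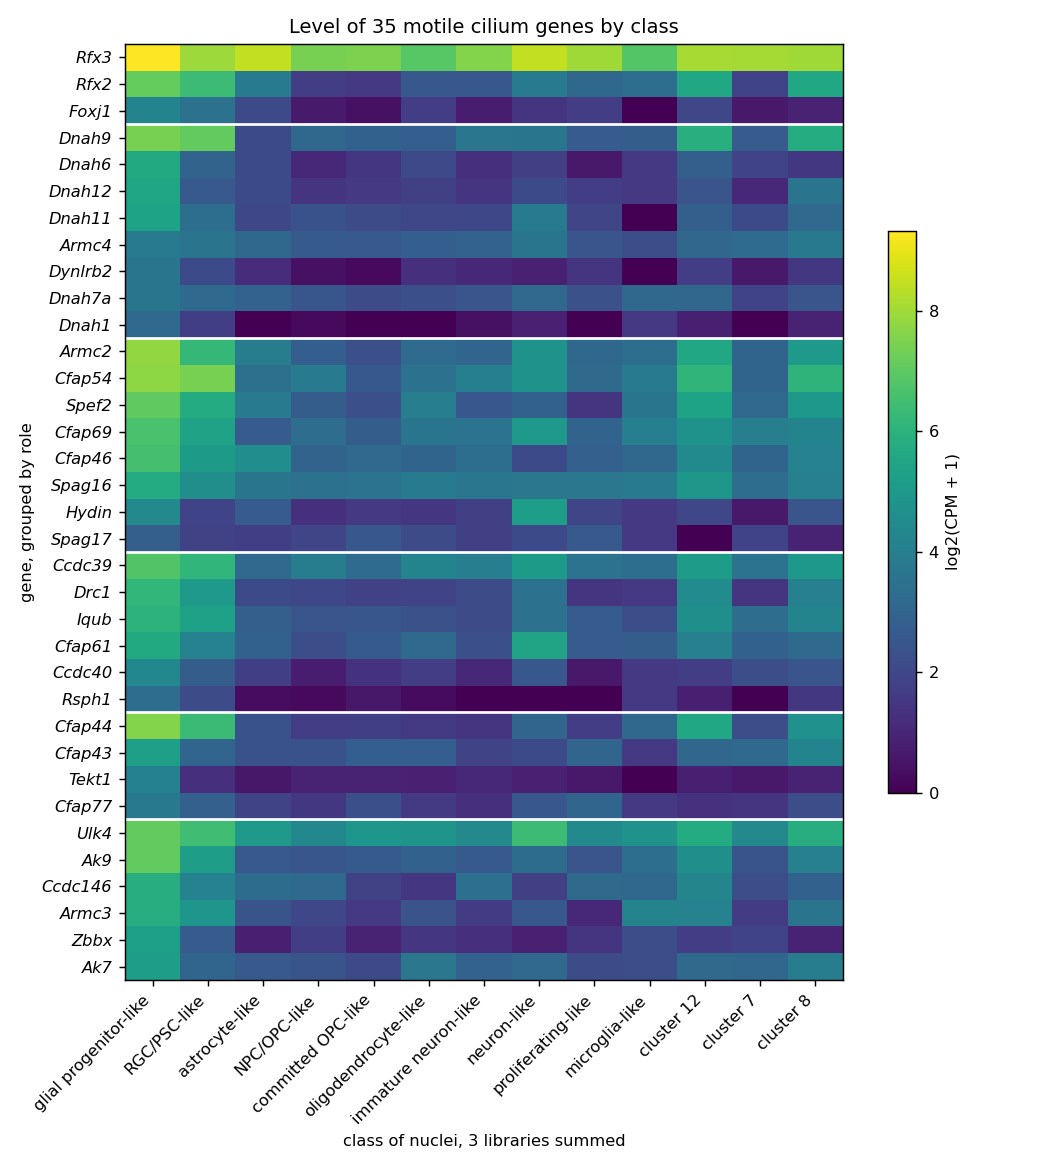
Level of each of the 35 genes in each class of nuclei, all 3 libraries together, with color for CPM on a log scale and genes grouped by role. With the small cluster included, the glial progenitor-like class is the highest for 34 genes, RGC/PSC-like nuclei are second for 23, and Hydin is highest in neuron-like nuclei.

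The genes differed in how far they set glial progenitor-like apart from RGC/PSC-like nuclei. Over the 3 libraries together, 8 were at least 4 times higher in the former, where 1.82% of all counted genes were: Dnah6, Dnah11, Dnah12, Cfap43, Hydin, Ak7, Tekt1 and Zbbx. Another 17 were 2 to 4 times higher, among them Rfx3, Cfap44 and Armc2, and 10 were less than 2 times higher, namely Foxj1, Rfx2, Dnah7a, Dnah9, Cfap54, Ccdc39, Armc3, Armc4, Ulk4 and Iqub. The dynein heavy chains differed among themselves, with a log2 ratio of 3.15 (2.61 to 3.73) for Dnah12 and 0.32 (0.18 to 0.46) for Dnah9. The 27 nuclei of the small cluster carried part of this order. Without them 3 genes, Dnah6, Tekt1 and Zbbx, were at least 4 times higher (1.56% of all counted genes) and 20 of 35 at least 2 times (7.21%), in place of 25 (7.59%). Dnah12 was then at 15.2 against 5.01 CPM, a log2 ratio of 1.6 (0.98 to 2.25), and Ak7 at 8.68 against 7.20 CPM, or 0.27 (-0.38 to 0.91). Taken by library with the 27 nuclei, 11 of 29 counted genes were at least 2 times higher in control, 28 of 32 in CBP-ablated and 24 of 35 in p300-ablated nuclei, where 6.43%, 7.44% and 8.04% of all counted genes were. In control, Cfap43 stood at 13.4 against 8.02 CPM and Ak7 at 8.94 against 4.94 CPM.

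The 35 genes lie on 17 chromosomes and span 4.70 kb (Foxj1) to 898 kb (Spag16). Introns were counted, so levels of different genes are compared per 10 kb of gene. On that scale Foxj1 was highest at 37.5, followed by Ccdc39 at 34.8, Rfx3 at 25.7 and Rfx2 at 25.05 CPM per 10 kb, and Spag17 was lowest at 0.239 CPM per 10 kb. Before division Foxj1, the shortest gene, was at only 17.6 CPM. Counts from 3′ ends need not grow with gene length, so this order leans on the divisor. Of the 38359 UMIs of these genes, 12193 (31.8%) were from Rfx3, so sums over the list lean on it.

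The 3 transcription factors of the list were present in glial progenitor-like nuclei of every library. Foxj1, the forkhead factor required for motile cilia, stood at 13.4 (7.95 to 21.2) in control, 18.7 (12.2 to 27.3) in CBP-ablated and 19.8 (14.1 to 27.03) CPM in p300-ablated nuclei. These rest on 18, 26 and 39 UMIs, and the 3 intervals overlap. In RGC/PSC-like nuclei Foxj1 stood at 11.1, 7.72 and 10.9 CPM in the same order. Rfx2, a winged-helix factor of ciliary genes, stood at 143 (124 to 165) in control, 115 (97.7 to 134) in CBP-ablated and 151 (134 to 169) CPM in p300-ablated nuclei. Rfx3, its close relative, stood at 628 (586 to 672) in control, 564 (525 to 605) in CBP-ablated and 703 (667 to 741) CPM in p300-ablated nuclei. For both, the CBP-ablated nuclei were lowest and the p300-ablated nuclei highest.

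Dyneins drive the beat, and their genes differed in how far the libraries stood apart. Dnah6, a heavy chain of the inner arms, stood at 23.1 (15.7 to 32.8) in control, 70.3 (57.1 to 85.7) in CBP-ablated and 54.2 (44.5 to 65.5) CPM in p300-ablated nuclei. Dnah12, also of the inner arms, stood at 15.6 (9.69 to 23.9) in control, 48.1 (37.3 to 61.1) in CBP-ablated and 61.3 (50.9 to 73.3) CPM in p300-ablated nuclei. Dnah11, of the outer arms, stood at 21.6 (14.5 to 31.03) in control, 56.7 (44.9 to 70.7) in CBP-ablated and 45.1 (36.2 to 55.5) CPM in p300-ablated nuclei. For each of these 3 genes the control interval lay below both ablated intervals. Of their glial progenitor-like UMIs, 45.3%, 66.5% and 31.5% lay in the small cluster. Dnah12 UMIs came from only 12, 18 and 32 nuclei, so its intervals are too narrow. Without the small cluster, the median log2 ratio to control over counted dynein genes was 0.24 for CBP, ranging from -0.59 to 1.23. For p300 it was 0.58, ranging from -0.74 to 1.38, and over all counted genes it was 0.08 for each. Dnah9, the other outer-arm chain, was nearly level at 155, 184 and 169 CPM in the same order. Dnah7a, of the inner arms, was at 8.94, 12.2 and 12.2 CPM, and its UMIs are uncertain because near-identical copies, Dnah7b and Dnah7c, lie in the same genome. Armc4, a docking protein of the outer arms, was at 8.20, 12.9 and 17.2 CPM with overlapping intervals. Dnah1 and the light chain gene Dynlrb2, both under 200 UMIs in all, lay between 5.96 and 12.9 CPM in every library.

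All 8 central pair genes had their lowest value in control, with the small cluster included. Without it, the median log2 ratio to control was 0.25 over 6 counted central pair genes for CBP, ranging from -0.29 to 0.34. For p300 it was 0.61 over 7 counted genes, ranging from 0.36 to 1.39. The median over all counted genes was 0.08 for each. The values that follow include the small cluster. Hydin rested on 6 UMIs in control and stood at 4.47 (1.64 to 9.73) in control, 25.8 (18.1 to 35.8) in CBP-ablated and 26.9 (20.1 to 35.1) CPM in p300-ablated nuclei. Armc2, needed to build the central pair in sperm, stood at 181 (159 to 205) in control, 187 (165 to 211) in CBP-ablated and 273 (250.2 to 297) CPM in p300-ablated nuclei. Its CBP-ablated level was within the control interval, and the p300-ablated level was above both. Cfap54, of the central pair, stood at 156 (135 to 178) in control, 243 (217 to 269.9) in CBP-ablated and 229 (208 to 251) CPM in p300-ablated nuclei. Spef2, another central pair gene, was at 90.9, 145 and 153 CPM, Cfap69 at 70.8, 106 and 116 CPM and Cfap46 at 70.04, 111 and 99.9 CPM. In these 4 genes control was lowest and its interval met neither ablated interval, while the ablated intervals overlapped each other. Spag16 was at 35.02, 74.6 and 47.1 CPM, with the p300-ablated interval overlapping that of control. Spag17 had few UMIs, at 2.98, 6.46 and 8.11 CPM.

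Genes of the ruler, nexin link and radial spokes varied less evenly. Ccdc39, which with Ccdc40 forms the ruler that spaces the arms and spokes, stood at 71.5 (57.9 to 87.4) in control, 138 (119 to 159) in CBP-ablated and 119.6 (105 to 136) CPM in p300-ablated nuclei, with control below both others. Ccdc40 was at 11.2, 18.7 and 25.9 CPM. Drc1, of the nexin link, stood at 66.3 (53.3 to 81.6) in control, 60.3 (48.1 to 74.6) in CBP-ablated and 83.6 (71.4 to 97.4) CPM in p300-ablated nuclei, with all 3 intervals overlapping. Cfap61, of a spoke-associated complex, was at 30.6, 50.2 and 63.4 CPM and Iqub, of the radial spokes, at 51.4, 75.4 and 65.9 CPM. Rsph1, of the spoke heads, rested on 7 to 22 UMIs at 5.22, 10.05 and 11.2 CPM. Without the small cluster, the median log2 ratio to control over counted genes of this group was 0.19 for CBP, ranging from -0.24 to 0.47. For p300 it was 0.44, ranging from 0.18 to 1.24.

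The 4 doublet and tether genes also had their lowest values in control. Cfap44, which led the nuclei in the rule and tethers inner dyneins with Cfap43, stood at 130.4 (112 to 151) in control, 187 (165 to 211) in CBP-ablated and 234 (213 to 256) CPM in p300-ablated nuclei, and no pair of these intervals overlapped. Cfap43 stood at 13.4 (7.95 to 21.2) in control, 43.1 (32.9 to 55.4) in CBP-ablated and 50.2 (40.8 to 61.1) CPM in p300-ablated nuclei. Cfap43 overlaps Itprip on the same strand, so part of its UMIs may belong to that gene. Tekt1, a filament protein of the doublets, was at 7.45, 23.7 and 16.7 CPM and Cfap77, a doublet protein, at 6.71, 15.8 and 14.7 CPM. Without the small cluster, the median log2 ratio to control over counted genes of this group was 0.39 for CBP, ranging from 0.20 to 1.69. For p300 it was 1.02, ranging from 0.75 to 1.53.

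The remaining 6 genes had mixed or less certain ciliary roles, and control was the lowest library for each. Ak7, an adenylate kinase of cilia, stood at 8.94 (4.62 to 15.6) in control, 64.6 (51.9 to 79.4) in CBP-ablated and 35.5 (27.7 to 44.8) CPM in p300-ablated nuclei. Its 3 intervals did not overlap, but its UMIs came from only 4, 24 and 20 nuclei in that order. Of these UMIs, 76.7% lay in the small cluster. Ak9, another adenylate kinase, stood at 66.3 (53.3 to 81.6) in control, 169 (148 to 192) in CBP-ablated and 155 (138 to 174) CPM in p300-ablated nuclei. Ulk4, a pseudokinase linked to ependymal cilia, was at 103, 158 and 140.4 CPM. Ccdc146, Armc3 and Zbbx were at 35.8, 64.6 and 61.8 CPM, at 35.02, 72.5 and 56.8 CPM and at 23.8, 45.2 and 41.6 CPM, each time in the order control, CBP-ablated and p300-ablated.

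**Figure D2:**
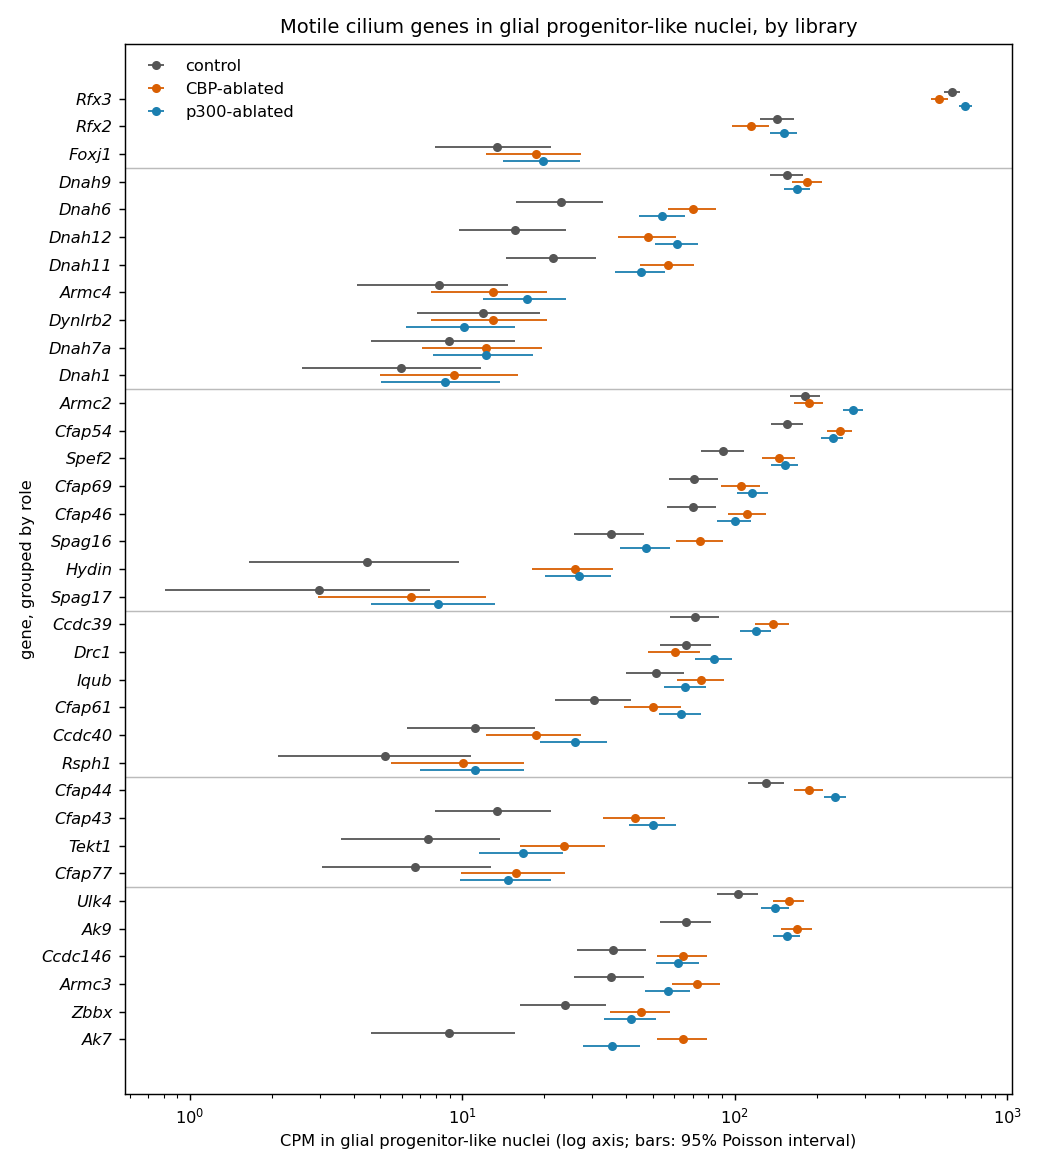
Level of each gene in glial progenitor-like nuclei of the control, CBP-ablated and p300-ablated libraries in CPM on a log axis, with points for 1 library each and bars for 95% Poisson intervals. The points of Rfx2, Rfx3, Dnah9 and Drc1 lie close together, while those of Ak7, Hydin, Dnah12, Dnah6 and Cfap43 lie well to the left in control. All values include the small cluster.

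The CBP-ablated library was first set against the control library. Crebbp RNA was not lower in it, which does not check the deletion. In glial progenitor-like nuclei, 11 of 34 counted ciliary genes were at least 2 times higher and 0 were 2 times lower, where 3.79% of all counted genes were higher and 2.56% lower by that much. The summed level had a log2 ratio of 0.47 (0.40 to 0.53). Without the small cluster, which held 15 CBP-ablated and 2 control nuclei, 2 of 30 genes were at least 2 times higher, against 2.76% of all counted genes, and the summed log2 ratio was 0.10 (0.03 to 0.18). With it, the median log2 ratio was 0.70 over the ciliary genes and 0.09 over all counted genes. The 3 transcription factors were not among the 11, with log2 ratios of 0.48 (-0.45 to 1.43) for Foxj1, -0.32 (-0.63 to -0.01) for Rfx2 and -0.16 (-0.30 to -0.01) for Rfx3. Ratios of the structural genes ran from -0.14 (-0.59 to 0.31) for Drc1 to 2.85 (1.98 to 3.86) for Ak7, with 2.53 (1.27 to 4.07) for Hydin, 1.68 (0.90 to 2.53) for Cfap43, 1.67 (0.61 to 2.85) for Tekt1, 1.62 (0.89 to 2.40) for Dnah12 and 1.61 (1.01 to 2.24) for Dnah6. In all nuclei together, 6 of 35 were at least 2 times higher and 0 lower, against 4.18% and 5.68% of all counted genes, and the summed log2 ratio was 0.26 (0.22 to 0.30). In RGC/PSC-like nuclei the sum was instead lower than in control, at a log2 ratio of -0.26 (-0.35 to -0.17).

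The p300-ablated library was set against the same control library, so both comparisons share their control values. In glial progenitor-like nuclei, 14 of 35 genes were at least 2 times higher and 0 were 2 times lower, where 3.71% of all counted genes were higher and 1.76% lower by that much. For 2 of the 14, Spag17 and Rsph1, the interval of the ratio included 0. Without the small cluster 8 of 33 were at least 2 times higher, against 3.44% of all counted genes. With it, the summed log2 ratio was 0.55 (0.49 to 0.61), and the median was 0.75 over the ciliary genes and 0.08 over all counted genes. Foxj1 had a log2 ratio of 0.56 (-0.28 to 1.45), Rfx2 of 0.08 (-0.19 to 0.35) and Rfx3 of 0.16 (0.04 to 0.29). Among structural genes, Hydin was at 2.59 (1.37 to 4.10), Ak7 at 1.99 (1.09 to 3.01), Dnah12 at 1.97 (1.29 to 2.71) and Cfap43 at 1.90 (1.17 to 2.72), and Dynlrb2 was lowest at -0.23 (-1.26 to 0.81). Armc2 was at 0.59 (0.37 to 0.82), where its CBP-ablated ratio was 0.05 (-0.21 to 0.31). In all nuclei, 5 of 35 were at least 2 times higher and 0 lower, against 1.87% and 3.87% of all counted genes, with a summed log2 ratio of 0.37 (0.33 to 0.40). In RGC/PSC-like nuclei the sum differed little, at 0.06 (-0.02 to 0.13).

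Other markers also differed in the same nuclei. The summed level of 8 astrocyte markers in glial progenitor-like nuclei was 9149 CPM in control, 7010 CPM in CBP-ablated and 6680 CPM in p300-ablated nuclei, in the reverse order of the ciliary sum. Glial progenitor markers stood at 11054, 11784 and 11572 CPM, choroid plexus markers at 35.8, 35.2 and 42.6 CPM and oligodendrocyte markers at 93.9, 330.1 and 90.7 CPM. The part of these markers, and of the median depth of 2924 UMIs in control against 3498 and 3415 UMIs, in the ciliary differences was not tested. An astrocyte-like cluster existed only in control, so the glial progenitor-like nuclei of the 3 libraries need not be the same selection of cells.

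A small set of nuclei carried over 50% of the glial progenitor-like UMIs of 3 structural genes, with a median of 19.7% over the 35 genes. At a higher clustering resolution, 27 nuclei formed a cluster of their own: 2 from control, 15 from the CBP-ablated and 10 from the p300-ablated library. All 27 lay in the glial progenitor-like cluster at the main resolution, although the small cluster did not itself meet the rule for that name. They were 0.449% (0.0545% to 1.61%), 3.81% (2.15% to 6.20%) and 1.74% (0.836% to 3.17%) of the glial progenitor-like nuclei. The cluster was found in these data. Of the 19 clusters at that resolution, it was taken because its summed level of the 35 genes was highest. Its nuclei were also grouped by genes that include ciliary ones. Its levels are thus a description, and nothing is read from how far these genes stand above other nuclei. The summed level of the 35 genes was 21848 CPM (20942 to 22783) in it, against 2613 CPM in the other glial progenitor-like nuclei. A single nucleus held between 15 and 32 of the 35 genes, with a median of 23, at a median depth of 3497 UMIs, and 0 of the 27 were called doublets. At least 2 times higher than in the other glial progenitor-like nuclei were 34 of 35 genes, where 17.6% of all counted genes were. When cilium genes were left out of the genes used for clustering, 25 of the 27 fell among glial progenitor-like nuclei and formed no cluster of their own.

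Regulators of centriole multiplication led this small cluster. Cdc20b, expressed in cells that multiply their centrioles, stood at 3784 (3413 to 4185) against 4.12 CPM in the other glial progenitor-like nuclei. Mcidas, the coactivator that starts the programme, stood at 429 (311 to 578) against 0.217 CPM, the latter from 1 UMI. Deup1, the scaffold on which new centrioles form, stood at 599 (457 to 771) against 2.17 CPM. Of the 27 nuclei, 21 had a UMI of at least 1 of these 3 genes and 18 of at least 2 of them. Myb and Trp73, both transcription factors of multiciliated cells, stood at 489 (362 to 647) against 5.86 CPM and 129.8 (69.1 to 222) against 1.52 CPM. Top2a, a gene of proliferating cells, stood at 199.7 (122 to 308) against 2.82 CPM. Gfap and Aqp4 were low in the cluster, at 99.9 (47.9 to 184) against 736 CPM and 89.9 (41.1 to 171) against 691 CPM. Of the marker lists, the proliferating one had the largest share above other nuclei, with 4 of 7 markers (57.1%), followed by the ependymal one with 3 of 8 (37.5%). The glial progenitor list had 3 of 9 (33.3%). With all of these under 60%, the cluster was given no cell type name.

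The share of a gene's UMIs that lay in the small cluster varied widely among the structural genes and was low for the RFX factors. Of all glial progenitor-like UMIs of a gene, the share from these 27 nuclei was 76.7% for Ak7, 66.5% for Dnah12 and 63.2% for Hydin. It was over 25% for 14 genes and had a median of 19.7%. It was under 10% for 5 genes, with 2.72% for Rfx3, 4.62% for Rfx2, 4.51% for Armc2, 4.73% for Drc1 and 7.94% for Armc4. Foxj1 had 10.8% of its UMIs there, and 6 of the 27 nuclei had a Foxj1 UMI. Each of the 35 genes was found in at least 1 of the nuclei and 18 were found in at least 20 of them. Ak9 was in all 27, Cfap44, Cfap54 and Spef2 in 26 each, and Spag17 and Armc4 in fewer than 5.

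**Figure D3:**
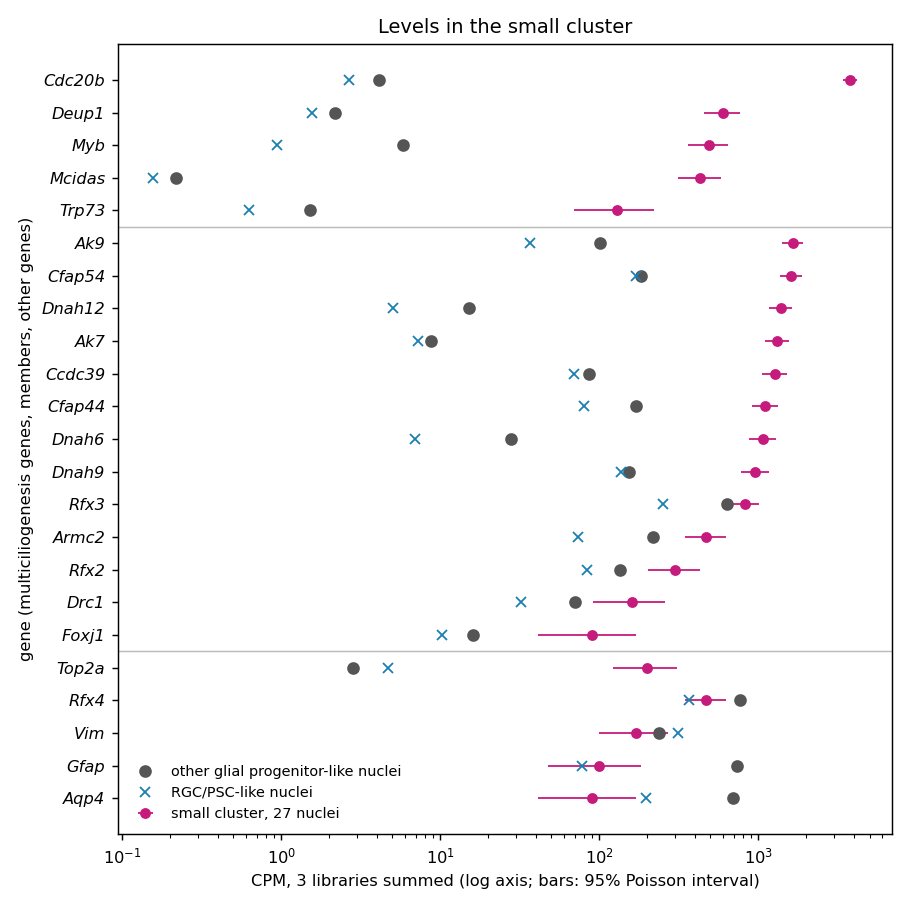
Levels of 13 of the ciliary genes, of regulators and of other named genes, over the 3 libraries, in the 27 nuclei of the small cluster (with 95% Poisson intervals), the other glial progenitor-like nuclei and the RGC/PSC-like nuclei (crosses), in CPM on a log axis. Cdc20b lies at 3784 against 4.12 CPM, whereas Gfap lies lower in the small cluster, at 99.9 against 736 CPM.

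Leaving these nuclei out changed the comparison of libraries, for CBP more than for p300. The summed log2 ratio in glial progenitor-like nuclei was then 0.10 (0.03 to 0.18) for the CBP-ablated and 0.44 (0.38 to 0.51) for the p300-ablated library. Without them Ak7 had 8.68 CPM over the 3 libraries in place of 36.5 CPM, and Hydin 7.60 in place of 20.2 CPM. Over all nuclei of a library, 0 of 35 genes were then at least 2 times higher for CBP and 2 of 35 for p300, where 4.03% and 1.81% of all counted genes were, with summed log2 ratios of 0.10 (0.06 to 0.14) and 0.31 (0.28 to 0.35).

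**Figure D4:**
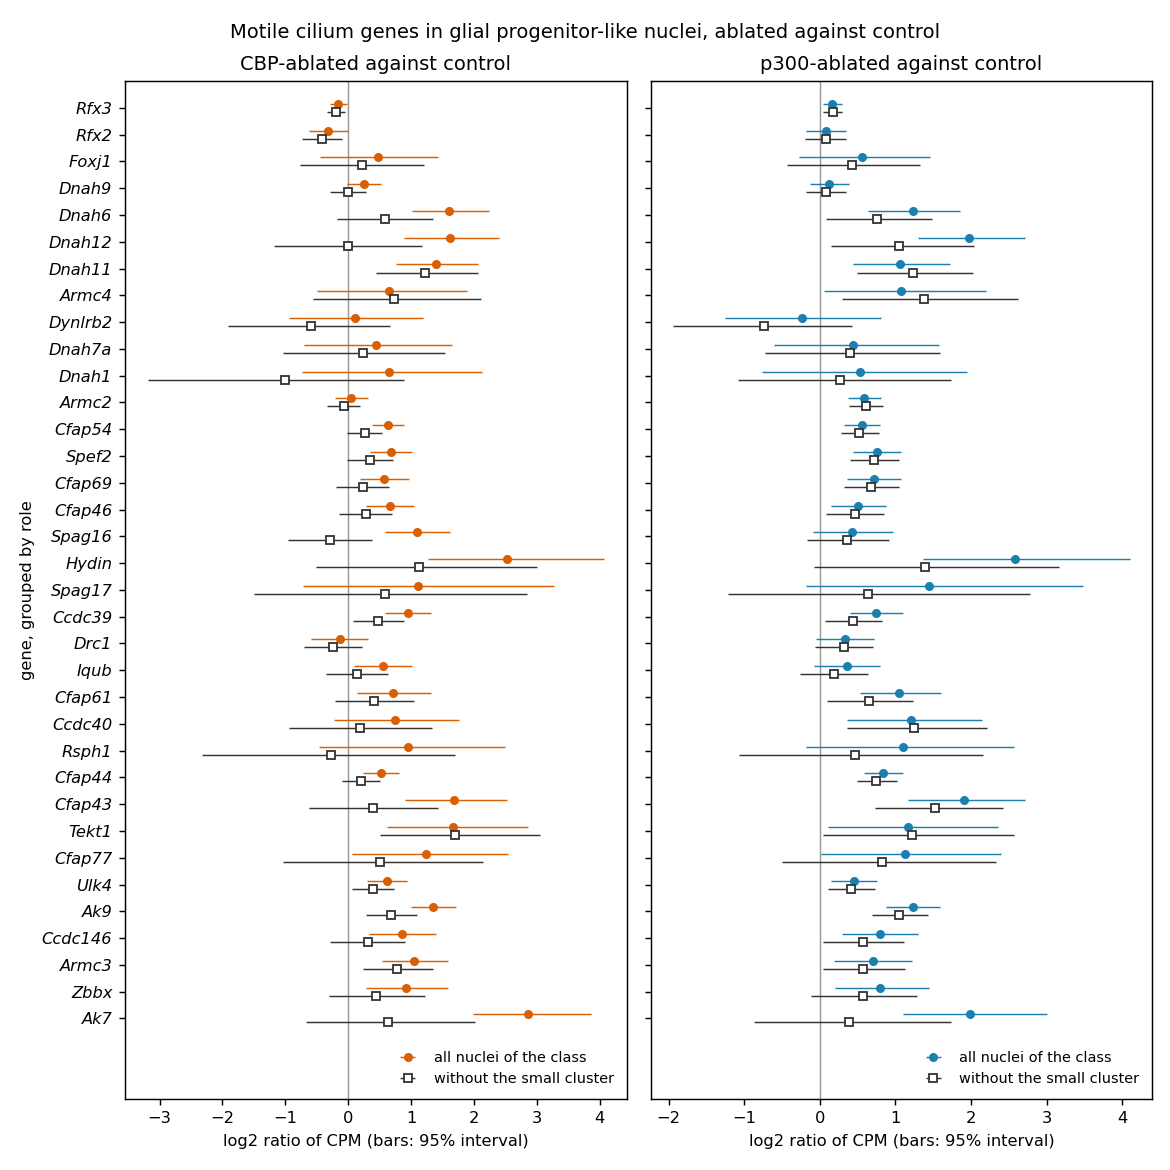
Log2 ratio of each gene in glial progenitor-like nuclei for the CBP-ablated and p300-ablated library against control, with bars for conditional binomial 95% intervals, for all glial progenitor-like nuclei and again without the 27 nuclei of the small cluster. When those nuclei are left out, genes at least 2 times higher go from 11 of 34 to 2 of 30 counted for the CBP-ablated library. The shares of all counted genes are 3.79% and 2.76%. For the p300-ablated library they go from 14 of 35 to 8 of 33, with shares of 3.71% and 3.44%.

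Nuclei were also picked by a UMI of Cdc20b, Mcidas or Deup1, without direct use of the ciliary genes. These 3 genes were chosen after their values were seen. They led the small cluster, which was itself taken for its summed ciliary level. Glial progenitor-like nuclei picked in this way numbered 5 in control, 18 after CBP ablation and 20 after p300 ablation, 21 of the 43 being in the small cluster. Their summed ciliary level was 11150 against 2196 CPM in the rest in control, 14150 against 2674 CPM in CBP-ablated and 11535 against 3057 CPM in p300-ablated nuclei. This contrast was partly set by the choice of genes, so nothing is read from it, and it is not given without the small cluster. The picked nuclei held a median of 17, 19 and 14.5 ciliary genes in the same order. RGC/PSC-like nuclei picked in the same way numbered 3, 11 and 13 and held a median of 1, 4 and 2. Medians over all RGC/PSC-like nuclei were 3, 3 and 4.

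Nuclei with a Foxj1 UMI were set against those without one. They numbered 18 of 445 in control (4.04%, 2.41 to 6.32), 24 of 394 in CBP-ablated (6.09%, 3.94 to 8.93) and 32 of 576 in p300-ablated glial progenitor-like nuclei (5.56%, 3.83 to 7.75). Among RGC/PSC-like nuclei the shares were 4.08%, 3.00% and 4.17%, so in control the 2 classes were about level. The other 34 genes summed to 2163 CPM in the 18 control glial progenitor-like nuclei with a Foxj1 UMI and 2305 CPM in the rest, a log2 ratio of -0.09 (-0.37 to 0.18). In CBP-ablated nuclei they summed to 5524 against 3030.4 CPM, or 0.87 (0.72 to 1.01), and in p300-ablated nuclei to 5084 against 3256 CPM, or 0.64 (0.52 to 0.77). Of the 24 and 32 nuclei, 3 each were in the small cluster. Without it the log2 ratios were 0.31 (0.10 to 0.51) and -0.12 (-0.29 to 0.06). Foxj1 had at most 3 UMIs in a nucleus, so a nucleus without one cannot be called negative.

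In most glial progenitor-like nuclei a few ciliary genes were detected rather than many. The number detected depends on depth, so a gene without a UMI in a nucleus cannot be called absent from it. The median number of the 35 genes with a UMI was 4 in control, 5 in CBP-ablated and 6 in p300-ablated nuclei. At least 10 were found in 24 control (5.39%), 55 CBP-ablated (14.0%) and 111 p300-ablated nuclei (19.3%), and without the small cluster in 22, 40 and 101 nuclei. After each nucleus was thinned to 1500 UMIs, to set depth aside, at least 3 were found in 44.9% (40.1 to 49.7), 51.3% (46.2 to 56.3) and 61.6% (57.5 to 65.7) of nuclei. Unthinned, the shares were 72.6%, 82.7% and 86.8%, and thinning left out 8, 4 and 18 nuclei under that depth. The thinned shares in RGC/PSC-like nuclei were 26.3%, 20.2% and 29.5%. In NPC/OPC-like nuclei they were 0.588%, 0.593% and 0.686% at median depths of 3271.5, 3473 and 3832 UMIs. The list was chosen partly on levels in glial progenitor-like nuclei, so nothing is read from the gap to other classes. Astrocyte-like control nuclei were at 2.36%. Some classes lay higher than these 2, with neuron-like nuclei at 4.40%, 7.10% and 9.64%. Of the unnamed clusters, cluster 8 was at 8.50%, 5.17% and 12.1%. Cluster 12, with 69, 36 and 79 nuclei, was at 7.25%, 30.6% and 13.9%. Unthinned, 5 of its 36 CBP-ablated nuclei (13.9%) held at least 10 of the genes, at a median depth of 7603 UMIs.

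**Figure D5:**
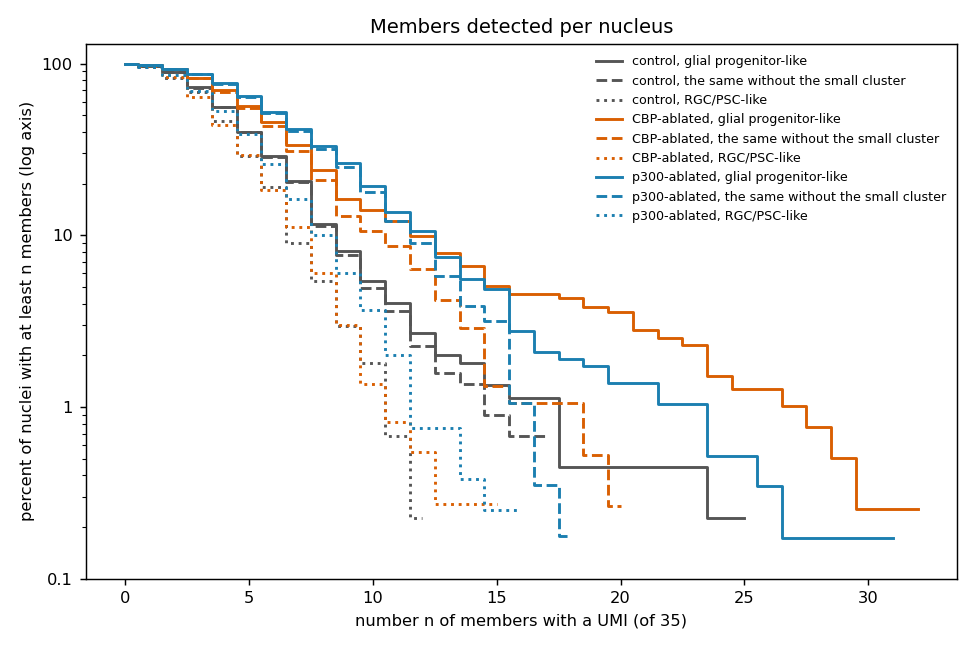
Percent of nuclei (log axis) with UMIs of at least n of the 35 genes, as a step line for each library, for glial progenitor-like nuclei with the small cluster (solid) and without it (dashed) and for RGC/PSC-like nuclei (dotted). The solid CBP-ablated line reaches 32 genes and falls to 20 without the small cluster, and at 10 genes the p300-ablated line stands at 19.3% with and 17.8% without it, against 5.39% and 4.97% in control.

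Other ciliary genes, in 7 lists of 138 genes, were compared in the same way, beside median log2 ratios over all counted genes of -0.04, 0.04 and 0.13 in control, CBP-ablated and p300-ablated libraries. The shares of all counted genes at least 2 times higher were 11.5%, 15.6% and 15.8%, and those at least 2 times lower 16.1%, 15.4% and 14.4%. Axonemal dyneins and docking genes other than those above were at least 2 times higher in glial progenitor-like than in other nuclei for 11 of 16, 13 of 16 and 14 of 17 counted genes, with medians of 1.53, 2.49 and 2.56. At least 2 times lower were 2 of these genes in control, 1 in CBP-ablated and 0 in p300-ablated. In glial progenitor-like nuclei Dnah7b was at 217, 273 and 303 CPM, Dnal1 at 80.5, 97.6 and 107 CPM and Wdr78 at 102, 129.9 and 151 CPM. Radial spoke, nexin link and central pair genes gave 11 of 13, 12 of 14 and 15 of 16 and medians of 2.09, 2.72 and 2.63, with Cfap47 at 87.2, 123 and 151 CPM, Spata17 at 115, 144 and 171 CPM and Cfap74 at 104, 112 and 147 CPM. Their sums were 538, 718 and 816 CPM, against 311, 326 and 334 CPM in RGC/PSC-like nuclei. Dynein assembly factors, which fold dyneins in the cytoplasm before transport, gave 5 of 6, 5 of 6 and 6 of 6 and medians of 1.30, 1.40 and 1.93, although 6 of the 12 had too few UMIs to be counted. Spag1 was at 55.1, 55.3 and 59.3 CPM, Dnaaf5 at 39.5, 46.6 and 46.6 CPM and Cfap300 at 21.6, 25.1 and 32.4 CPM.

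Further CFAP, tektin and axoneme genes gave 11 of 17, 17 of 20 and 18 of 23, with medians of 1.32, 2.55 and 2.0. At least 2 times lower were 0, 0 and 2 of them. Their sums were 774, 1085 and 1161 CPM, against 523, 498 and 512 CPM in RGC/PSC-like nuclei. Of this list Ccdc148 was at 303, 379 and 404 CPM, Cfap20 at 41.7, 40.9 and 44.1 CPM and Cfap36 at 64.8, 87.6 and 88.2 CPM. Cfap20 was higher in the other nuclei, at 68.9, 46.8 and 89.9 CPM, although its ratio interval for CBP-ablated included 0. Intraflagellar transport and primary cilium genes, which non-motile cilia also need, gave 11, 16 and 15 of 35, with median log2 ratios of 0.81, 0.92 and 0.83. Their sums were 2138, 2694 and 2506 CPM, against 1870, 2031 and 1989 CPM in RGC/PSC-like nuclei. Ahi1 was at 127, 184 and 153 CPM, Bbs9 at 206, 273 and 237 CPM and Kif3a at 92.4, 96.9 and 114 CPM. Kif3a was lower than in other nuclei, with log2 ratios of -0.57, -0.63 and -0.45. Ahi1 was too, at -0.31, -0.08 and -0.28, although its interval for CBP-ablated included 0. Regulators of multiciliogenesis gave 1 of 8, 5 of 11 and 4 of 10, with medians of 0.37, 0.83 and 0.67, and in control 1 of 8 is close to the share of all counted genes. The 3 with most UMIs were Cep63 at 31.3, 38.8 and 33.96 CPM, Cep152 at 23.8, 40.9 and 29.4 CPM and Ccdc78 at 20.1, 17.9 and 26.9 CPM, of which Cep63 and Cep152 encode centrosome proteins that dividing cells also use. The other listed genes with Rfx names (Rfx1, Rfx4, Rfx5, Rfx7, Rfxank and Rfxap) gave 1, 1 and 2 of 6. Their medians were 0.05, 0.40 and 0.47, and 1 of 6 is close to that share as well. Rfx4, a factor of radial glia, was at 797, 665 and 812 CPM, Rfx7 at 196, 232 and 197 CPM and Rfx1 at 9.69, 14.4 and 14.2 CPM. Rfx7 was lower than in other nuclei, with log2 ratios of -0.40, -0.09 and -0.23, although its interval for CBP-ablated included 0.

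Against control, in glial progenitor-like nuclei, genes of these lists that passed the same fold were named by that count, after their values were seen. Of all counted genes, 3.79% were at least 2 times higher and 2.56% lower in the CBP-ablated library, and 3.71% higher and 1.76% lower in the p300-ablated library. Among regulators, 4 of 11 counted genes were at least 2 times higher in the CBP-ablated and 3 of 10 in the p300-ablated library. Without the small cluster the counts were 0 of 7 and 1 of 8. Those 27 nuclei held 379 UMIs of Cdc20b and 43 of Mcidas, against 19 and 1 in the other glial progenitor-like nuclei. Cdc20b stood at 1.49 CPM (2 UMIs) in control, 154 CPM in CBP-ablated and 92.3 CPM in p300-ablated nuclei, Myb at 3.73, 19.4 and 22.3 CPM and Deup1 at 3.73, 10.8 and 25.3 CPM, although the counting interval of the Deup1 log2 ratio for CBP reached 0. Mcidas, the fourth, stood at 1.49 CPM (2 UMIs) in control and 17.9 CPM in CBP-ablated nuclei. Gmnc, which acts at the start of the same programme, was the regulator at least 2 times lower in the CBP-ablated library, at 7.89 against 22.4 CPM with a log2 ratio of -1.502 (-2.65 to -0.46).

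Of the other dynein and docking genes, 5 of 12 were at least 2 times higher in the CBP-ablated library (Dnah2, Dnaic2, Ccdc151, Ttc25 and Wdr63) and 4 of 13 in the p300-ablated library (Dnah2, Dnah3, Dnali1 and Wdr63). Wdr63 stood at 7.45 CPM in control, 45.2 CPM in CBP-ablated and 36.5 CPM in p300-ablated nuclei. Of the CFAP, tektin and axoneme genes, 3 of 18 (Cfap45, Cfap65 and Cfap299) were higher by that fold in the p300-ablated library, and Cfap299 stood at 15.6 CPM in control, 57.4 CPM in CBP-ablated and 52.7 CPM in p300-ablated nuclei. Spoke, link and central pair genes gave 2 of 14 (Spag6l and Cfap221) and 1 of 15 (Rsph10b), with Ccdc65 lower by that fold in the p300-ablated library, at 5.58 against 11.2 CPM with a log2 ratio of -1.003 (-2.27 to 0.22). Transport and primary cilium genes gave 1 of 34 (Kif17) and 1 of 35 (Ift27). No assembly factor or further listed gene with an Rfx name passed the fold, of 6 and 4 counted for CBP and of 6 and 6 for p300. The counts of 1 of 34 and 1 of 35 lie below the share of all counted genes. The log2 ratio intervals of Dnah3, Dnali1, Cfap221, Ccdc65, Kif17 and Ift27 included 0. Without the small cluster, dynein and docking genes gave 0 of 10 for CBP and 2 of 11 for p300, spoke, link and central pair genes 0 of 13 and 0 of 15, transport and primary cilium genes 0 of 33 and 1 of 35, and the CFAP, tektin and axoneme genes 3 of 16 for p300. The shares of all counted genes were then 2.76% for CBP and 3.44% for p300.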

How the data were processed

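Nuclei from 3 pools of neurosphere cultures, 1 per condition, were profiled on the 10x Chromium with a version 3 kit for 3′ counting. The deposited values are UMI counts per gene and nucleus, which the authors made with Cell Ranger 3.1 on GRCm38 (mm10), counting introns and exons. The submitters' processing notes also name FastQC 0.11.9 and Seurat 2.3.4. The files held 12549 nuclei and 30559 genes, the lowest nucleus having 500 UMIs.

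Here the counts were log-normalized in Seurat 5.3.0 (R 4.3.3), merged and clustered on 1617 variable genes, of which 8 belong to the 35 described, with 20 principal components, 30 neighbours and resolution 0.6. A cluster took a name where at least 60% and at least 3 of a list's markers had a UMI in 10% of its nuclei and stood 2 times above other nuclei, with 1 CPM added. Of the 13 clusters, 10 were named. Scrublet in scanpy 1.11.5 scored nuclei as doublets, and the number called was set by an assumed rate of 0.8% per 1000 nuclei. The 191, 73 and 173 highest scores in the control, CBP-ablated and p300-ablated libraries were called. These nuclei were kept except in an alternative. UMIs were then summed by class and library, with no count model and no p-value, since each condition has 1 library. A gene was counted in a comparison from 20 UMIs in both groups together and called at a log2 ratio of 1. The ratio script was tested on simulated data.

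Genes with at least 200 UMIs were given by library, as were Foxj1, Rfx2, Rfx3, Cfap44 and Armc2 at any count, and the 3 genes of most UMIs in each further list. The 7 other genes under 200 UMIs are given too, by library or as a range, so that all 35 are accounted for. The genes described, the lists and the rules were chosen with earlier results of these data known. Gene spans came from GENCODE M21 and promoters from RefSeq. Alternatives changed the clustering, resolution, depth, doublets, free RNA, gene minimum, scaling and genes summed. The count of the CFAP, tektin and axoneme list for CBP-ablated against control nuclei is not reported here.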

Additional observations from a re-analysis of the deposited data

Results flagged for a closer look

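The summed level of the 35 genes in the CBP-ablated against the control library had a log2 ratio of 0.47 in glial progenitor-like nuclei and -0.26 in RGC/PSC-like nuclei. Without the small cluster the first was 0.10 (0.03 to 0.18), and at resolution 1.2 it was 0.14. It was singled out because the 2 classes moved in opposite directions under the same comparison. The difference was not tested, since each condition has 1 library.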

How the results depend on the processing

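With 1 library per condition the counts measure these libraries only, and levels of genes with few UMIs, such as Hydin in control, are limited by depth. No paired analysis was possible because each condition has 1 library. Of 228 values recomputed under alternatives, 158 stayed inside their interval or within 1.5 times of the count, 67 moved beyond it and 3 changed sign. No alternative brought the log2 ratio of the summed level below 0 for glial progenitor-like against other nuclei or for ablated against control glial progenitor-like nuclei. Leaving out the small cluster was chosen after seeing the data. Where not said otherwise, the cause of a shift was not tested.

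For glial progenitor-like against other nuclei, with log2 ratios of 2.10, 2.59 and 2.51 in control, CBP-ablated and p300-ablated libraries, resolution 1.2 gave 1.98, 1.85 and 2.22, leaving out Cfap44 and Armc2 gave 1.97, 2.50 and 2.39, leaving out Rfx3 gave 2.52, 3.00 and 2.73, and subtracting 5% free RNA gave 2.17, 2.69 and 2.61. Clustering each library by itself gave 1.84 in control and 2.45 in CBP-ablated. Leaving cilium genes out of the variable genes gave 2.47 in p300-ablated, and leaving out the small cluster gave 2.17 in CBP-ablated and 2.35 in p300-ablated nuclei.

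For nuclei with a Foxj1 UMI, clustering by library turned the control log2 ratio from -0.09 to 0.22. In p300-ablated nuclei, resolution 1.2 turned 0.64 to -0.081 and leaving out the small cluster turned it to -0.12. Thinning to 1500 UMIs gave -1.02 in control, 0.63 in CBP-ablated and 0.24 in p300-ablated nuclei. In CBP-ablated nuclei, resolution 1.2 gave 0.13 and leaving out the small cluster 0.31, from 0.87.

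For the summed log2 ratio against control in all nuclei, 0.26 for CBP and 0.37 for p300, leaving out Rfx3 gave 0.51 and 0.66, centring on the median of all genes gave 0.21 and 0.41, and leaving out the small cluster gave 0.10 and 0.31. Leaving out Cfap44 and Armc2 gave 0.32 for p300. Genes at least 2 times higher went from 6 to 0 of 35 for CBP without the small cluster, where 4.18% and 4.03% of all counted genes were. For p300 they went from 5 to 2 of 35, where 1.87% and 1.81% were.

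In glial progenitor-like nuclei, where these ratios were 0.47 and 0.55, resolution 1.2 gave 0.14 and 0.48, leaving out Rfx3 gave 0.65 and 0.67, centring gave 0.38 and 0.47, and leaving out the small cluster gave 0.10 and 0.44. Clustering by library gave 0.81 for p300. Without the small cluster, genes at least 2 times higher went from 11 of 34 to 2 of 30 for CBP. The shares of all counted genes were 3.79% and 2.76%. For p300 they went from 14 of 35 to 8 of 33, with shares of 3.71% and 3.44%. Resolution 1.2 also gave 2 and 8, thinning gave 7 for p300, and requiring 100 UMIs, which counts fewer genes, gave 6 for each. For these 3 settings the genes counted and the shares of all genes are not given, so nothing is read from their counts.

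The share of glial progenitor-like nuclei with at least 3 of the genes, 44.9%, 51.3% and 61.6%, was 72.6%, 82.7% and 86.8% unthinned, 71.9%, 73.3% and 79.4% for at least 2 genes, and 14.9%, 21.8% and 28.0% for at least 5 genes. Clustering by library gave 36.9% in control and 44.9% in CBP-ablated nuclei.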
